A study of Mus musculus with 3 samples.

Results

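The regulators of G protein signaling (RGS) described here are 7 genes, *Rgs1*, *Rgs2*, *Rgs3*, *Rgs10*, *Rgs14*, *Rgs16* and *Rgs19*, out of 31053 genes counted in single-cell RNA libraries of mouse CD4+ T cells. They were picked by name with their levels in these same libraries known, so the levels and ratios below describe the genes and are not tests of them. G protein-coupled receptors, among them the chemokine and sphingosine-1-phosphate receptors that guide T cells through lymphoid tissue, signal by loading GTP onto a G protein α subunit. RGS proteins bind the loaded α subunit, speed up the hydrolysis of its GTP and so end the signal. *Rgs1*, *Rgs2*, *Rgs3* and *Rgs16* encode members of the R4 family, *Rgs19* a member of the RZ family, and *Rgs10* and *Rgs14* members of the R12 family.

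Naïve-enriched CD4+ T cells of C57BL/6 mouse spleens were sorted as live (7AAD-) CD3+CD4+ cells. The 3 libraries came from unstimulated cells in DPBS of *Ift20* f/f mice (0hr-WT, called WT), from *Ift20* f/f cells after 24 h of stimulation through CD3 and CD28 (24hr-WT), and from *Ift20* f/f CD4 cre cells after the same treatment (24hr-KO, called IFT20-KO). Each stimulating antibody, against CD3 or CD28, was used at 1 μg/mL. All mice carried the floxed *Ift20* alleles, were young males by the methods, and differed in a Cre transgene under the *Cd4* promoter, which is active from the thymus on. The sources used here do not say how many animals gave each library, an unstimulated IFT20-KO library was not analysed here, and the labels name a 5′ kit where the methods name a 3′ kit. With 1 library per group no difference has a replicate check, no test was made, and each 95% interval below covers counting error only. Cells of 1 library are not replicates of its condition.

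Barcodes with more than 200 genes and under 15% mitochondrial transcripts were kept, where a transcript is counted by its unique molecular identifier (UMI). This left 8031 cells in the unstimulated WT library, 9903 in stimulated WT and 13920 in IFT20-KO, with 37133949, 116979076 and 106435143 UMIs. Median depths were 4627, 12167 and 5014.5 UMIs per cell, and 16.6%, 21.7% and 39.6% of the cells had under 3000 UMIs. *Ift20*, the targeted gene, stood at 64.4 UMIs per 1000000 of the library (CPM) in unstimulated WT, 76.0 CPM in stimulated WT and 6.60 CPM in IFT20-KO cells, in the direction of the labels. All 6 T cell markers looked for were present, with a summed level between 3103 and 3816 CPM. Summed levels of B cell markers were between 186 and 296 CPM, of myeloid markers between 79.2 and 84.0 CPM, of CD8 T cell markers between 9.16 and 28.7 CPM and of NK cell markers between 5.41 and 46.1 CPM, highest in the unstimulated library. Erythroid and plasma cell markers stood at 0.0940 CPM or less, and *Lyz2* and *Ncr1* had at most 1 UMI in any library. Between 114 and 197 cell barcodes were shared by any pair of libraries.

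The genes lie on chromosomes 1, 2, 4, 7 and 13 of the mouse genome build GRCm38. *Rgs2* (chr1:143999338-144004161, minus strand) and *Rgs1* (chr1:144242296-144249242, minus strand) are 238134 bases apart, and *Rgs16* (chr1:153740349-153745468, plus strand) lies farther along the same chromosome. *Rgs19* is at chr2:181688419-181693977 on the minus strand, *Rgs3* at chr4:62559847-62704001 on the plus strand, *Rgs10* at chr7:128373621-128418758 on the minus strand and *Rgs14* at chr13:55369732-55384687 on the plus strand. An antisense gene, *Gm28513*, overlaps *Rgs16* and had 40 UMIs in the unstimulated library, 24 in stimulated WT and 23 in IFT20-KO cells. RefSeq promoters (GRCm38.p6) matched 5 of the 7 genes. The 250 bases upstream of the start are shown for *Rgs16*, the gene with the largest ratio below, and for *Rgs2*. In stimulated cells *Rgs2* was found with *Rgs1* and with *Rgs16* more often than the depth of the cells gives. Capitals mark a loose NF-κB pattern, GGG and CC with any 5 bases between them, on either strand, and overlapping matches run together.
Rgs16, chr1:153740103-153740352, plus strand: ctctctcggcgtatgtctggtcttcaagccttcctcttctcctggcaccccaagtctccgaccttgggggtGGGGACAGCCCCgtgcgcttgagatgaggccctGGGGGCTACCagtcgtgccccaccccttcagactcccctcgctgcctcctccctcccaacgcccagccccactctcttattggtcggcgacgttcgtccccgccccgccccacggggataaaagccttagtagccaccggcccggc
Rgs2, chr1:144004150-144004399, minus strand: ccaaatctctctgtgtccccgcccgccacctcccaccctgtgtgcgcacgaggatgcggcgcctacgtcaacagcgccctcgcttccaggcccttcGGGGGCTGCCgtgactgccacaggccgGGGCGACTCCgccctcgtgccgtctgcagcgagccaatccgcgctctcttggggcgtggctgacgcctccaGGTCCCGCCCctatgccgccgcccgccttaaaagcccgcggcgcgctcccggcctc
The pattern matched 4 times before *Rgs16* and 3 times before *Rgs2*, and 45.8% of 32807 promoter windows of this length hold it at least once. It matched 5 times before *Rgs10*, 1 or 2 times in each window of *Rgs19* and 0 times in those of *Rgs3*, none of them shown. Neither window shown held the letters GGAAA (the NFAT core, in 55.6% of windows), TGANTCA (the AP-1 pattern, in 6.75%) or TGACGTCA (the cAMP response element, in 1.55%). These are matches of letters and say nothing of binding.

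Stimulation of WT cells went with much higher levels of *Rgs1* and *Rgs16*, a much lower level of *Rgs14*, and smaller differences in the other 4 genes. Of the 7 genes, 2 were at least 2-fold higher and 1 at least 2-fold lower in stimulated than in unstimulated WT cells. Among the 13297 genes that had 10 UMIs or more in these libraries together, 19.3% were that much higher and 23.0% that much lower, or 42.3% in either direction (39.2% among genes with 50 UMIs or more). The median log2 ratio of the 7 RGS genes was 0.53, beside −0.089 over all those genes. As UMIs per cell without scaling for depth, 4 of the 7 were that much higher and 1 that much lower, beside 58.5% and 6.4% of all genes, and *Rgs3* (0.56) and *Rgs19* (0.87) were then above 0 but below the median of all genes, 1.26. Since the genes were picked with these values known, nothing is read from the counts.

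*Rgs16*, an R4 protein that acts on Gαi and Gαq, was close to absent before stimulation. It had 19 UMIs in unstimulated WT cells, or 0.512 CPM (0.308 to 0.799), 12022 UMIs or 103 CPM (101 to 105) in stimulated WT cells, and 9265 UMIs or 87.0 CPM (85.3 to 88.8) in stimulated IFT20-KO cells. Both stimulated libraries were thus far above the unstimulated one. The log2 ratio of stimulated over unstimulated WT cells was 7.65 (7.01 to 8.38), and 11 of the 13297 genes had a higher one. A UMI of *Rgs16* was found in 11 of 8031 unstimulated cells, 0.137% (0.0684% to 0.245%), against 38.5% of stimulated WT cells.

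*Rgs1*, which dampens chemokine receptor signaling in lymphocytes, was present at a low level before stimulation. Its level was 8.59 CPM (7.67 to 9.59, from 319 UMIs) in unstimulated WT, 228 CPM (225 to 231, from 26643 UMIs) in stimulated WT and 193 CPM (190 to 196, from 20545 UMIs) in stimulated IFT20-KO cells. This made a log2 ratio of 4.73 (4.57 to 4.89) between the WT libraries, or 26.5-fold. The share of cells with a UMI was 2.42% before stimulation and 55.3% after it.

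The other R4 genes differed less. *Rgs2*, which is selective for Gαq, was at 6.54 CPM (5.75 to 7.42) in unstimulated WT, 10.6 CPM (10.0 to 11.2) in stimulated WT and 12.4 CPM (11.7 to 13.04) in IFT20-KO cells. *Rgs3*, which acts on Gαi and Gαq and comes in long and short forms, ran the other way, with 25.1 CPM (23.5 to 26.8), 14.5 CPM (13.8 to 15.2) and 19.1 CPM (18.3 to 19.99) in the same order. The log2 ratio of the WT libraries was 0.70 (0.50 to 0.90) for *Rgs2* and −0.79 (−0.91 to −0.67) for *Rgs3*. An antisense gene, *Gm11209*, overlaps *Rgs3* and had too few UMIs to enter the comparisons.

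*Rgs14* was the member whose level was most reduced after stimulation. Its protein joins an RGS domain to Ras-binding domains and to a GoLoco motif that holds Gαi in its GDP-bound form. The level was 97.6 CPM (94.4 to 101) in unstimulated WT, 17.7 CPM (16.9 to 18.5) in stimulated WT and 17.9 CPM (17.1 to 18.7) in IFT20-KO cells. The stimulated WT level was 5.52-fold lower than the unstimulated one, a log2 ratio of −2.46 (−2.54 to −2.39), and 773 of the 13297 genes had a lower one. *Rgs14* was found in 34.9% of unstimulated and 17.8% of stimulated WT cells, although the latter had more UMIs per cell.

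*Rgs10*, a small RGS protein that acts on Gαi, was at 264 CPM (259 to 269) in unstimulated WT, 382 CPM (378 to 385) in stimulated WT and 358 CPM (355 to 362) in IFT20-KO cells. *Rgs19*, also called GAIP, acts on Gαi as well, and its levels were 128 CPM (125 to 132), 91.7 CPM (89.9 to 93.4) and 84.2 CPM (82.5 to 86.0) in that order. Both genes were detected in many cells of every library. The log2 ratio of the WT libraries was 0.53 (0.50 to 0.56) for *Rgs10* and −0.48 (−0.53 to −0.44) for *Rgs19*, so the R12 genes *Rgs10* and *Rgs14* went opposite ways.

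**Figure D1:**
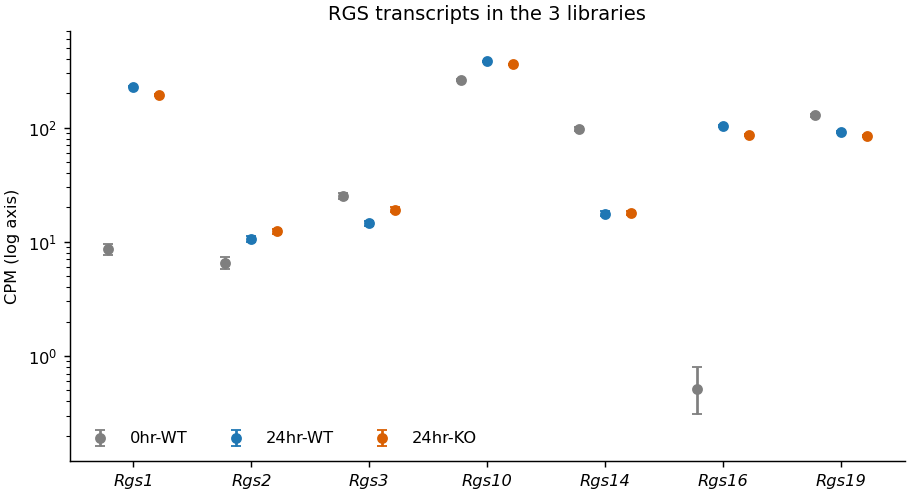
Level of each RGS gene in CPM on a log axis in unstimulated WT (0hr-WT), stimulated WT (24hr-WT) and IFT20-KO cells (24hr-KO), 1 library each. Points are summed UMIs and bars exact Poisson 95% intervals of counting error. *Rgs16* goes from 0.512 to 103 CPM and *Rgs14* from 97.6 to 17.7 CPM between the WT libraries, and the stimulated libraries lie close together for every gene.

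Between the stimulated libraries the RGS genes differed little. The log2 ratio of IFT20-KO over WT was −0.24 (−0.27 to −0.21) for *Rgs1* and −0.24 (−0.28 to −0.20) for *Rgs16*. It was 0.22 (0.11 to 0.33) for *Rgs2* and 0.40 (0.31 to 0.49) for *Rgs3*, the member with the largest value in size. For *Rgs14* it was 0.02 (−0.07 to 0.11), for *Rgs10* −0.09 (−0.11 to −0.07) and for *Rgs19* −0.12 (−0.16 to −0.08). None of the 7 was 2-fold higher or lower, where 3.92% of 13504 genes were at least 2-fold higher and 1.67% at least 2-fold lower in IFT20-KO cells, or 5.6% in either direction (2.44% among genes with 50 UMIs or more). The median over the 7 genes was −0.09, beside 0.14 over all those genes, and *Ift20* itself was at −3.52 (−3.64 to −3.41). As UMIs per cell without scaling, all 7 genes were below 0, between −0.87 and −0.23, where the median of all genes was −0.49. No replicate shows how far 2 libraries of 1 genotype would differ.

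**Figure D2:**
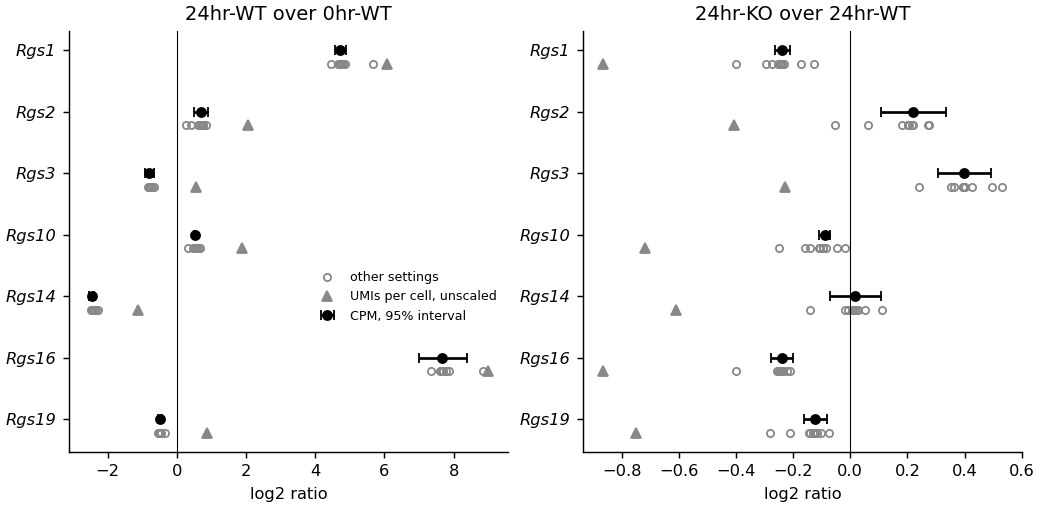
Log2 ratio of each RGS gene for stimulated over unstimulated WT cells (left) and for stimulated IFT20-KO over stimulated WT cells (right), on separate scales. Filled circles are ratios of CPM with 95% counting intervals, open circles the same ratio under other scalings and cell filters, and triangles UMIs per cell without scaling for depth. On the left, *Rgs1*, *Rgs2*, *Rgs10*, *Rgs14* and *Rgs16* lie on 1 side of 0 under every setting, whereas without scaling *Rgs3* and *Rgs19* change side. On the right, *Rgs2*, *Rgs3* and *Rgs14* change side without scaling. *Rgs2* does so in thinned cells too, and *Rgs14* under some other settings.

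The libraries differ in depth, so shares of cells were also taken from 1400 UMIs drawn at random per cell, leaving out 801 unstimulated and 421 stimulated WT cells and 0 IFT20-KO cells. At this depth *Rgs1* was found in 0.899% of unstimulated WT, 22.5% of stimulated WT and 22.2% of IFT20-KO cells, and *Rgs16* in 0.0830%, 11.01% and 10.04%. Without thinning, the stimulated WT and IFT20-KO shares were 55.3% and 49.5% for *Rgs1* and 38.5% and 30.9% for *Rgs16*. Thinning thus brought the shares of the stimulated libraries nearer to each other for *Rgs1* and *Rgs16*. *Rgs14* was found in 11.9%, 2.57% and 2.84% of the thinned cells, *Rgs10* in 30.4%, 35.2% and 33.1%, and *Rgs19* in 15.8%, 11.5% and 9.97%. For *Rgs19* the unthinned share was higher in stimulated than in unstimulated WT cells, 57.1% against 43.1%, while its thinned share and its CPM were lower. *Rgs2* was found in 0.871%, 1.37% and 1.32% and *Rgs3* in 3.37%, 1.96% and 2.85% of the thinned cells. Without thinning, the share of *Rgs3* was higher in stimulated WT than in IFT20-KO cells, 14.5% against 12.7%. With thinning it was lower in stimulated WT cells. The sort left no cell type that should lack these genes, so the share that free RNA gives was not measured.

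Levels were also summed within classes of cells of like depth. Some classes were small, with 339 stimulated WT cells between 3000 and 6000 UMIs and 62 unstimulated cells from 12000 UMIs on. *Rgs16* was higher in stimulated than in unstimulated WT cells in each of 4 classes, with log2 ratios between 5.61 and 8.03, and so was *Rgs1*, with ratios between 4.01 and 4.59. From the shallowest class to the deepest, unstimulated cells had 1, 8, 8 and 2 *Rgs16* UMIs, so the spread of its ratios is uncertain. *Rgs14* was lower in each, from −2.80 to −1.46. *Rgs10* did not keep its side of 0: it was at −0.52 (−0.71 to −0.34) in cells with under 3000 UMIs, where stimulated cells had 148 and unstimulated cells 212 CPM, and at 0.59 (0.53 to 0.65) in cells with 6000 to 12000 UMIs. *Rgs2* did not keep its side either. It was at −0.49 under 3000 UMIs and −0.21 between 6000 and 12000, but at 0.41 between 3000 and 6000 and 0.50 from 12000 UMIs on. Its intervals included 0 in all 4 classes.

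Among stimulated cells *Rgs1* stood lowest between 6000 and 12000 UMIs. In WT cells it was at 272 CPM under 3000 UMIs, 192 CPM between 3000 and 6000, 133 CPM between 6000 and 12000 and 251 CPM from 12000 UMIs on. The IFT20-KO cells had 215, 227, 126 and 224 CPM, so that the class from 6000 to 12000 UMIs was lowest in both, while the class from 3000 to 6000 lay below both ends in WT but near their level in IFT20-KO cells. *Rgs10* was lowest in the shallowest cells of both, at 148 CPM in WT and 218 CPM in IFT20-KO cells.

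*Rgs3* was higher in IFT20-KO than in WT cells in each of the 4 depth classes, with log2 ratios between 0.30 and 0.67, although the interval from 3000 to 6000 UMIs included 0. *Rgs2* was also higher in each class, with ratios between 0.14 and 0.76 and intervals above 0 from 6000 UMIs on. *Rgs16* was lower in each, between −0.23 and −0.08, with an interval below 0 from 12000 UMIs on. *Rgs1* was lower in 3 classes and higher, at 0.24 (0.05 to 0.43), between 3000 and 6000 UMIs. That class held 339 WT and 1602 IFT20-KO cells. *Rgs14* was at −0.64 (−1.11 to −0.14) between 3000 and 6000 UMIs and at −0.22 (−0.39 to −0.06) between 6000 and 12000. Its intervals included 0 in the other classes. In cells with under 3000 UMIs, which made up more of the IFT20-KO library, *Rgs10* was at 0.56 (0.43 to 0.69) and *Rgs19* at 0.29 (0.07 to 0.52), above 0 where their ratios over all cells were below it.

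**Figure D3:**
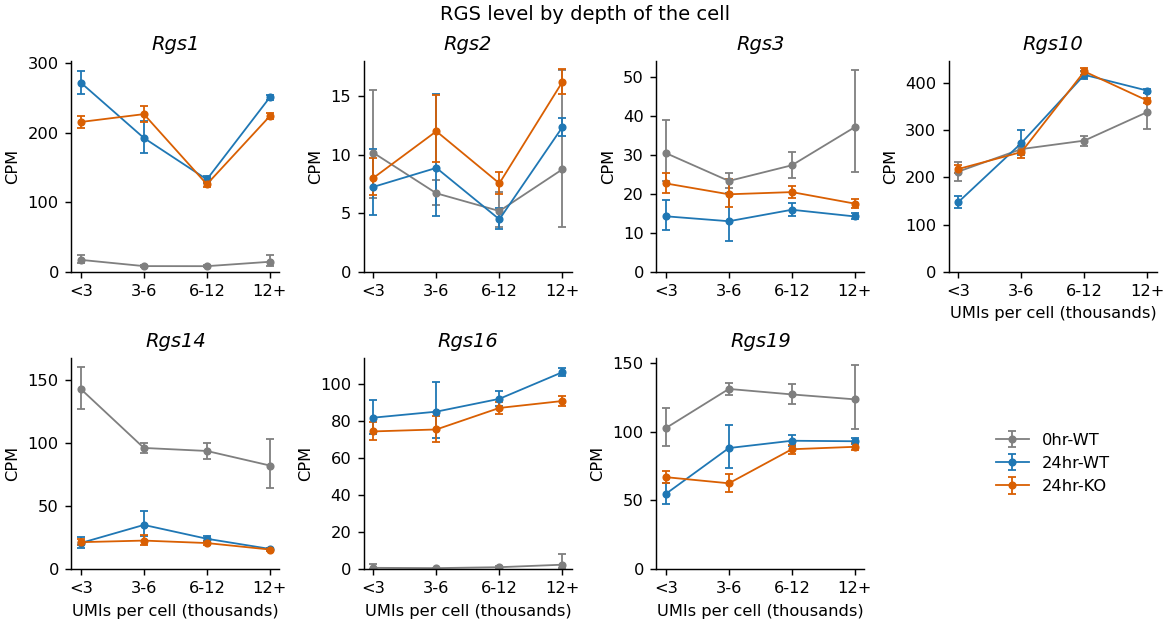
Level of each RGS gene in CPM within 4 classes of cells by UMIs per cell (in units of 1000), with exact Poisson 95% intervals, for unstimulated WT cells in gray, stimulated WT cells in blue and IFT20-KO cells in orange. Each panel has its own scale. *Rgs1* and *Rgs16* are higher and *Rgs14* is lower in the stimulated libraries at every depth, and *Rgs1* dips to 133 and 126 CPM between 6000 and 12000 UMIs.

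*Rgs1* and *Rgs16* were spread unevenly over the stimulated cells. In the 5082 stimulated WT cells with at least 12000 UMIs, *Rgs1* was found in 70.1% (68.8% to 71.3%), where 1 common level in all of them would give 98.0%. *Rgs16* was found in 52.7% (51.3% to 54.1%) against 82.8% for a common level. The 3408 IFT20-KO cells of this depth had 73.8% against 96.5% for *Rgs1* and 53.1% against 75.8% for *Rgs16*. *Rgs14* and *Rgs19* came close to the common level, with 23.3% against 23.8% and 78.3% against 78.6% in WT cells, and *Rgs10* was found in 95.8% against 99.7%. *Rgs2* lay below it, with 14.5% against 19.3%.

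Few cells carried a large part of the *Rgs1* transcripts. In the stimulated WT library 816 cells, 8.24% of all, had at least 10 *Rgs1* UMIs and held 45.4% of them, with up to 52 in a cell. These cells had a median of 19159.5 UMIs, against 12167 in the library. For *Rgs16*, 176 cells (1.78%) had at least 10 UMIs and held 18.7% of them. In the shallower IFT20-KO library, 345 cells (2.48%) reached 10 *Rgs1* UMIs and held 23.0% of them.

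**Figure D4:**
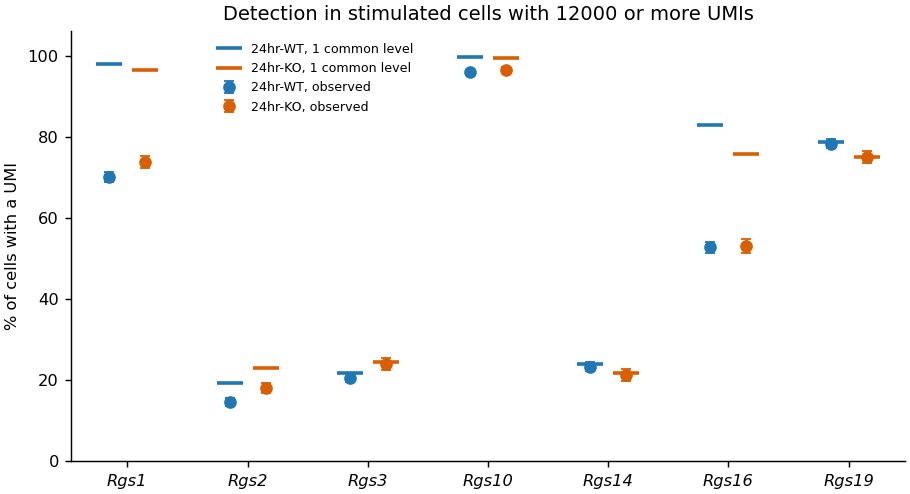
Share of stimulated cells with at least 12000 UMIs in which each RGS gene had a UMI, in WT (blue) and IFT20-KO (orange) libraries. Circles are observed shares with exact Clopper-Pearson 95% intervals, and dashes the share that 1 common level in all these cells would give at their depths. The circles lie well below the dashes for *Rgs1* (70.1% against 98.0% in WT) and *Rgs16*, and near them for *Rgs14* and *Rgs19*.

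Transcripts of *Rgs1*, *Rgs2* and *Rgs16* were found together in stimulated cells more often than the depth of the cells gives. In WT cells *Rgs1* and *Rgs2* shared 763 cells, 1.26 times (1.17 to 1.35) the number computed within 10 groups of cells of like depth. Those were 13.9% of the *Rgs1* cells and 87.9% of the *Rgs2* cells. The value was 1.14 (1.04 to 1.24) for *Rgs2* with *Rgs16* and 1.08 (1.04 to 1.13) for *Rgs1* with *Rgs16*. IFT20-KO cells had 1.23, 1.15 and 1.05 for the same pairs. These were the 3 of 21 pairs with an interval above 1 in either stimulated library, and 0 pairs had one below 1. In unstimulated cells 14 pairs had at least 20 shared cells expected, and 0 of them had an interval that left out 1. The largest value was 1.45 (0.9996 to 2.04), for *Rgs1* with *Rgs3*. Pairs among *Rgs1*, *Rgs2* and *Rgs16* fell under that minimum, so they were not assessed before stimulation.

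Before stimulation, *Rgs1* and *Rgs16* had much higher levels in cells with a UMI of *Foxp3*, the factor that defines regulatory T cells, than in the other cells. These were 343 of 8031 cells, 4.27%, with a median depth of 4583 UMIs against 4627.5 in the rest. *Rgs1* was at 95.2 CPM (81.0 to 111) in them and 4.51 CPM (3.84 to 5.27) in the other cells, and they held 159 of its 319 UMIs. The log2 ratio was 4.40 (4.07 to 4.72). *Rgs16* had 11 of its 19 UMIs there, or 6.58 CPM against 0.226 CPM, and was found in 1.75% of these cells. A single unstimulated cell, with a UMI of *Foxp3*, held 6 of the 19 UMIs and thus 6 of those 11. *Rgs10* was at 345 CPM against 260 CPM and *Rgs3* at 34.1 CPM against 24.7 CPM, while the ratios of *Rgs2*, *Rgs14* and *Rgs19* had intervals that included 0. A cell with 0 *Foxp3* UMIs can still express it.

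Leaving out cells with a *Foxp3* UMI in both WT libraries moved the log2 ratio of stimulated over unstimulated cells to 5.67 for *Rgs1* and 8.85 for *Rgs16*, from 4.73 and 7.65. This choice was made after the data had been seen, and the ratio of *Rgs16* then rested on 8 UMIs in unstimulated cells. Without the cells that carried at least 2 UMIs of 13 defining markers of other cell types, 173 in each WT library, the ratios were 4.71 for *Rgs1*, 7.62 for *Rgs16* and −2.46 for *Rgs14*.

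After stimulation, *Rgs16* was higher in cells with a UMI of *Nr4a1*, *Il2*, *Ccl4* or *Il2ra* than in cells without, in both stimulated libraries. It was lower in cells with a UMI of the proliferation gene *Mki67*, with log2 ratios of −0.43 in WT and −0.27 in IFT20-KO cells, and its intervals for *Tbx21*, the factor of type 1 helper cells, included 0 in both. Cells with a UMI of *Nr4a1*, an early receptor-response gene, made up 36.8% of the stimulated WT cells and had 146 CPM of *Rgs16* against 67.6 CPM in the rest, a log2 ratio of 1.11 (1.05 to 1.16). In IFT20-KO cells the levels were 120 and 65.5 CPM, a ratio of 0.88 (0.82 to 0.94). The ratio of *Rgs1* for this marker was smaller, 0.20 in WT and 0.24 in IFT20-KO cells.

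Cells with a UMI of *Il2*, the cytokine that drives T cell growth, were higher in 3 R4 genes at once. In WT cells *Rgs1* was at 344 CPM against 196 CPM, *Rgs2* at 17.9 CPM against 8.63 CPM and *Rgs16* at 167 CPM against 85.3 CPM. Those are log2 ratios of 0.81, 1.05 and 0.97, beside 0.82, 0.89 and 0.79 in IFT20-KO cells. *Rgs14* was lower in the *Il2* cells, at 12.8 CPM against 19.02 CPM in WT and 13.9 CPM against 18.8 CPM in IFT20-KO cells. *Il2* cells were also deeper, with a median of 15481 against 11584 UMIs in WT and 9953 against 4144 in IFT20-KO cells. Standardised over 10 groups of like depth, the WT ratios were 0.67 for *Rgs1*, 0.78 for *Rgs2*, 1.00 for *Rgs16* and −0.44 for *Rgs14*.

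Cells with a UMI of the chemokine gene *Ccl4* had 158 CPM of *Rgs16* against 86.4 CPM in WT and 122 CPM against 73.5 CPM in IFT20-KO cells. In cells with a UMI of *Il2ra*, the high-affinity IL-2 receptor chain, *Rgs1* was at 244 CPM against 156 CPM in WT and 204 CPM against 157 CPM in IFT20-KO cells. The ratio of *Rgs2* for this marker nearly vanished once depth was standardised in WT cells, from 0.63 to 0.02. In IFT20-KO cells it went from 0.48 to 0.21.

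Cells that still had a UMI of *Il7r*, a gene of resting T cells, went the other way from the *Il2* cells for some of the RGS genes. In WT cells *Rgs16* was at 54.6 CPM against 105 CPM, *Rgs1* at 162 CPM against 231 CPM and *Rgs2* at 4.99 CPM against 10.9 CPM. *Rgs14* was higher in them, at 22.6 CPM against 17.5 CPM. In stimulated WT cells, *Rgs1*, *Rgs2*, *Rgs14* and *Rgs16* were therefore each on the other side of 0 in the *Il7r* cells from the *Il2* cells. *Rgs10* was lower in both classes of WT cells, at 265 CPM against 387 CPM for *Il7r* and 331 CPM against 395 CPM for *Il2*. In IFT20-KO cells *Rgs16* was at 60.3 CPM against 88.1 CPM, and *Rgs14* had a log2 ratio of 0.25 (−0.08 to 0.57) for *Il7r*, an interval that included 0, and of −0.039 in cells with at least 2 *Il7r* UMIs. With a minimum of 1 marker UMI, *Rgs19* differed little between the classes of any marker. In stimulated WT cells with at least 2 *Il7r* UMIs its ratio was 0.39 (0.13 to 0.64).

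**Figure D5:**
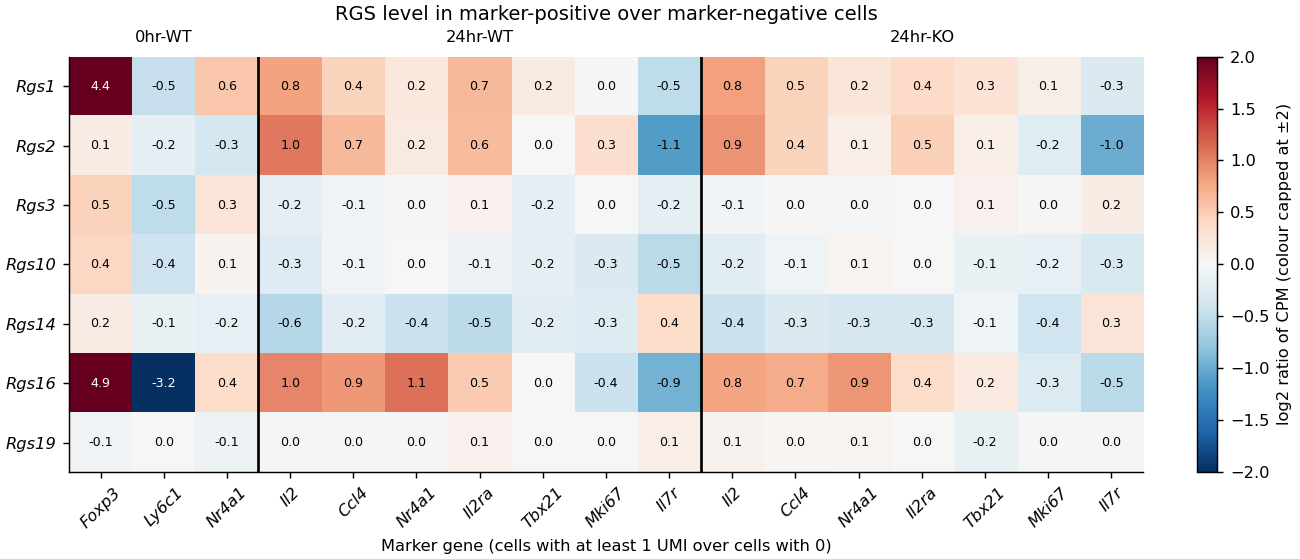
Log2 ratio of the level of each RGS gene (rows) in cells with at least 1 UMI of a marker gene over cells with 0 (columns), within the unstimulated WT, the stimulated WT and the IFT20-KO library. Colours stop at ±2 and numbers give the ratio. Among the columns shown, *Rgs1* (4.4) and *Rgs16* (4.9) stand out in unstimulated *Foxp3* cells. The 19 unstimulated UMIs of *Rgs16* leave its first columns uncertain. The small unstimulated classes by *S100a4* and *Ifit3* are not shown. In *S100a4* cells the ratios were 2.86 for *Rgs1* and 4.73 for *Rgs16*.

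The rest of the RGS family gave few UMIs in these cells. Of 14 further RGS genes, 2 had at least 10 UMIs over both WT libraries. *Rgs11* was at 3.93, 0.906 and 1.03 CPM and *Rgs12* at 1.70, 2.32 and 3.48 CPM in unstimulated WT, stimulated WT and IFT20-KO cells. Each of the other 12 had at most 5 UMIs in any library.

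Among other proteins that hold an RGS domain, more genes were at least 2-fold lower than higher in CPM after stimulation. Of 13 measured, 1 was at least 2-fold higher and 8 at least 2-fold lower, beside 19.3% and 23.0% of all genes, with a median log2 ratio of −1.27 beside −0.089 over all genes. As UMIs per cell without scaling, a setting added for these lists after the data had been seen, 4 were that much higher and 2 that much lower, beside 58.5% and 6.4% of all genes, and the median was 0.080 beside 1.26. The one that was higher was the receptor kinase gene *Grk5*, at 1.94 and 4.20 CPM before and after stimulation, named after its value was seen. *Arhgef1*, which links Gα13 to the GTPase RhoA, was at 690 CPM in unstimulated and 250 CPM in stimulated WT cells. The receptor kinases *Grk6* and *Grk2*, which desensitize G protein-coupled receptors, were at 145 and 60.3 CPM before and 36.6 and 23.5 CPM after stimulation, and *Axin2*, a feedback gene of Wnt signaling, at 11.6 and 1.96 CPM.

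Among the G protein α subunits, which include the substrates of RGS proteins, 1 of 9 measured was at least 2-fold higher. Another 3 were at least 2-fold lower, and the median was −0.30. Together these came close to the share of all genes past 2-fold, 42.3%. Without scaling, 5 were that much higher and 1 that much lower, beside 58.5% and 6.4% of all genes. *Gnai2*, the main Gαi of lymphocytes, was at 344 CPM in unstimulated and 166 CPM in stimulated WT cells, a log2 ratio of −1.05 (−1.09 to −1.02). The others past 2-fold, named after their values were seen, were *Gnaq* at 0.943 and 4.22 CPM, *Gna15* at 5.60 and 0.829 CPM and *Gnal* at 0.323 and 0.0855 CPM. Of 4 β and 6 γ subunits, 1 was past 2-fold in CPM, the γ subunit *Gngt2* at −1.97, beside 42.3% of all genes. Without scaling, all 4 β and 5 γ subunits were at least 2-fold higher, beside 58.5% of all genes. Of 6 other regulators of Gα measured, 1 was at least 2-fold higher and 3 at least 2-fold lower, beside 19.3% and 23.0% of all genes. Without scaling, 1 was that much higher and 0 that much lower, beside 58.5% and 6.4%. *Gpsm3*, a GoLoco protein that binds Gαi as *Rgs14* does, was at 387 and 117 CPM, a ratio of −1.73. The others past 2-fold, named after their values were seen, were *Gpsm2* at −2.22, *Ric8b* at −1.20 and *Ccdc88a* at 1.09.

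Of 28 receptors measured among 36 chemokine, lipid, purine and related receptors of T cells, 4 were at least 2-fold higher and 15 at least 2-fold lower, beside 19.3% and 23.0% of all genes, with a median of −1.60. Among the 24 receptors with 50 UMIs or more, 4 were that much higher and 12 that much lower, with a median of −1.08. Without scaling, 8 of the 28 were at least 2-fold higher and 8 that much lower, beside 58.5% and 6.4% of all genes. The median of the 28 was then −0.25, beside 1.26 over all genes. *S1pr1*, the receptor that T cells use to leave lymphoid organs, was at 294 CPM in unstimulated and 8.89 CPM in stimulated WT cells. *S1pr4*, a related receptor, was at 161 and 34.6 CPM. The prostaglandin E2 receptor gene *Ptger2* was higher after stimulation, at 44.2 CPM against 3.55 CPM, and so were the chemokine receptor gene *Ccr4*, at 12.9 CPM against 1.64 CPM, and *Gpr174*, a lysophosphatidylserine receptor gene, at 55.9 CPM against 19.7 CPM. The remaining gene that was higher, named after its value was seen, was *Ccr8* at 4.92 CPM against 1.13 CPM. *Ccr7*, which holds T cells in lymph nodes, was at 721, 532 and 681 CPM in unstimulated WT, stimulated WT and IFT20-KO cells, and is named with its values known.

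Between IFT20-KO and WT cells, 2 of the 67 genes measured in these lists were past 2-fold, or 2.99%, near the share of all genes (5.6%, or 2.44% with 50 UMIs or more). They were 1 receptor that was at least 2-fold lower (*P2ry14*, with 12 UMIs in WT and 4 in IFT20-KO cells) and 1 α subunit that was at least 2-fold higher (*Gnal*, with 10 and 20 UMIs), both named after their values were seen. The medians of the lists were between −0.21 and 0.40, beside 0.14 over all genes.

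The genes whose pattern over the 3 libraries was nearest to that of each RGS gene were sought among 7836 genes with at least 10 CPM in a library, by the Euclidean distance in the pair of log2 ratios. For *Rgs1* these were *Eif4ebp1*, *Slamf7* and *Utf1*, at distances of 0.11 to 0.18. *Rgs16* was nearest to *Bcat1*, which went from 0.539 to 95.8 CPM between the WT libraries and stood at 85.1 CPM in IFT20-KO cells, at a distance of 0.19. *Rgs14* was nearest to *Acp5*, at 217, 37.9 and 38.3 CPM, followed by *Gramd4* and *Cpm*. *Rgs10* had *Pepd*, *Cnot7* and *Hmga1* within 0.02 and *Rgs19* had *Nme2*, *Ptp4a2* and *Vps28* within 0.02, where small ratios are common. *Rgs2* was nearest to *Aga* and *Rgs3* to *Ap5m1*, at 0.02 and 0.01. With 3 libraries, a near pattern means no more than like levels.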

How the data were processed

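The libraries were made from sorted mouse CD4+ T cells on the 10x Genomics droplet platform, 1 library per group. The authors aligned reads to mm10 and counted UMIs with Cell Ranger, whose version in the file headers is 3.1.0, and deposited counts of UMIs per gene and called barcode without normalization. Everything after those counts was computed here with numpy 2.4.6, pandas 2.3.3 and scipy 1.17.1 under Python 3.11.15, and plotted by matplotlib 3.10.9.

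The filter of the methods (over 200 genes, mitochondrial share below 15%) took out 222, 417 and 12 barcodes. The deposited barcodes started at 500, 709 and 1493 UMIs, so the libraries differed in the minimum of their cell calling. Sums of UMIs are given per 1000000 (CPM) with exact Poisson intervals. Ratios carry exact binomial intervals and shares of cells exact Clopper-Pearson intervals, all at the 95.0% level. Ratios were computed for every gene that had 10 UMIs or more in the pair of libraries, and a library at 0 was set to a floor of 3 UMIs. No doublet caller was run.

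The RGS genes, marker genes and gene lists (other RGS genes, proteins with an RGS domain, G protein subunits, other regulators of Gα and receptors) were chosen with earlier results of these data known. Of a list, genes past 2-fold with at least 10 CPM in either WT library are named, up to 8 per direction. The 3 nearest genes were taken per RGS gene. Gene positions come from GENCODE M21 on GRCm38. Alternatives were other scalings, an equal weight per cell, other barcode filters, thinned cells, a marker minimum of 2 UMIs, standardisation over 10 groups of like depth, and a list minimum of 50 UMIs. The ratio was tested on simulated counts with 200 changed genes, and the true value lay in the interval for 94.0% of them in the comparison of stimulation, run on 10801 genes, and for 97.5% in that of genotype, run on 11055 genes. The simulated sums were Poisson draws without variation between cells or animals. They check the calculation of the intervals, and not whether the real counts vary only by counting error.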

Additional observations from a re-analysis of the deposited data

How the results depend on the processing

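No paired analysis was possible because each group has 1 library and the labels give no replicate numbers. The number of RGS genes at least 2-fold apart between the WT libraries was 3 under each setting but UMIs per cell without scaling, which gave 5, and between the stimulated libraries it was 0 under each setting. Without scaling, the median log2 ratio of all genes moved by 1.35 for stimulation and by −0.63 for IFT20-KO over WT, and the ratio for stimulation was then 0.56 for *Rgs3* and 0.87 for *Rgs19*, and that for IFT20-KO over WT −0.41 for *Rgs2*, −0.23 for *Rgs3* and −0.61 for *Rgs14*, each on the other side of 0. Median-ratio scaling moved the median of all genes by 0.13 and −0.16, and gave −0.14 for *Rgs14* in IFT20-KO over WT, whose ratio of 0.02 was also below 0 with cells of at least 3000 or 6000 UMIs (−0.009 and −0.019). Cells thinned to 1400 UMIs gave −0.054 for *Rgs2* in IFT20-KO over WT, also on the other side. In marker classes, *Rgs1* in *Ifit3* cells was at −0.49 with at least 2 marker UMIs, and standardised depth gave −0.038 for *Rgs2* in *Mki67* cells of stimulated WT, −0.080 for *Rgs1* in *Mki67* cells of IFT20-KO and −0.011 for *Rgs10* in *Nr4a1* cells of IFT20-KO, all on the other side of 0. With a list minimum of 50 UMIs, 0 receptors and 0 α subunits were past 2-fold between IFT20-KO and WT cells, against 1 each. Without scaling, an alternative chosen after seeing the data, 4 β subunits, 5 γ subunits and 1 other regulator of Gα were past 2-fold for stimulation, against 0, 1 and 4. Of all genes, 58.5% were then at least 2-fold higher and 6.4% that much lower. Between IFT20-KO and WT cells 1 γ subunit and 3 receptors were past 2-fold without scaling, against 0 and 1. Of all genes, 0.911% were then at least 2-fold higher and 5.35% that much lower. The cause of these moves was not tested. The settings without *Foxp3* cells, without cells with markers of other cell types and without the cells with the most UMIs were chosen after seeing the data. Over all settings the ratio for stimulation was between 4.44 and 6.08 for *Rgs1*, between 7.34 and 9.003 for *Rgs16* and between −2.49 and −1.11 for *Rgs14*. With 1 library per group, variation between animals and cultures cannot be told apart from the group, and the 19 *Rgs16* UMIs in unstimulated cells limit its ratio.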

Other observations

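Smaller marker classes added to the picture of the RGS genes. Among unstimulated cells, those with a UMI of *Ly6c1*, a surface protein of a part of the naïve pool, were 4579 of 8031, and their level was 235 CPM against 314 CPM in the rest for *Rgs10* and 21.7 CPM against 30.8 CPM for *Rgs3*. They held 3 of the 19 *Rgs16* UMIs. The ratio of *Rgs19* for this marker was 0.01 (−0.07 to 0.10). The 32 cells with a UMI of *S100a4*, a gene of memory cells, had 8 UMIs of *Rgs2* and 10 of *Rgs1*, or 48.7 CPM against 6.36 CPM and 60.8 CPM against 8.36 CPM. They also held 2 of the 19 *Rgs16* UMIs, a log2 ratio of 4.73 (1.57 to 6.80). The 8 *Rgs2* UMIs lay in 2 of these cells, and the 16 cells with at least 2 *S100a4* UMIs had 0 of them and 9 of *Rgs1*. In the 121 cells with a UMI of *Ifit3*, an interferon-induced gene, *Rgs1* had 12 UMIs, or 19.5 CPM against 8.41 CPM, and the sign of this ratio depended on the marker minimum.

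In the stimulated libraries, cells with a UMI of the proliferation gene *Mki67* had 77.4 CPM of *Rgs16* against 104 CPM in WT and 73.3 CPM against 88.5 CPM in IFT20-KO cells. *Rgs10* was at 317 CPM against 386 CPM in WT and 324 CPM against 362 CPM in IFT20-KO cells for this marker. Cells with a UMI of *Tbx21*, the factor of type 1 helper cells, were 890 in WT and 131 in IFT20-KO, and their ratio of *Rgs16* was −0.01 (−0.09 to 0.07) and 0.19 (−0.05 to 0.43). Each of these values compares cells within 1 library.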
